A study of Homo sapiens with 12 samples.

Results

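The comparison described here set the siRNA called #1 siCITED1 against a negative control siRNA (siNEG) in HT144 cells, an established human melanoma line. It was chosen by the titles of the samples, and each difference was taken between 8 of the 12 arrays of the series, 4 of #1 siCITED1 and 4 of siNEG. The other 4 arrays came from cells given a second siRNA, #3 siCITED1. Their values are quoted only beside values of #1, but they entered the limma model of all 12 arrays. They thus share in the SEs and limma p-values given for #1. All 3 groups were the same cell line after a transient transfection, RNA was harvested 48 h later, and the groups differed by the siRNA alone as far as the labels tell. Because the wells came from 1 passage plated on 1 day, a p-value here weighs a difference only against well-to-well variation within 1 experiment, and precision is limited by having 4 arrays per group.

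Each Illumina BeadChip gave a log2 value for 47315 probes, short sequences that each read 1 transcript or a part of its variants. Per the methods these were centred by probe and by array before deposit. A value of 0.50 therefore means that an array lay 0.50 log2 above the probe's mean over the 12 arrays, a difference of 1 between groups is a 2-fold change, and no level of a gene can be read. Of the probes 30105 carried 1 gene symbol, for 20045 genes. The array of siNEG replicate 1 had the widest spread of values (SD of 0.134 against 0.110 to 0.131 in the other 7 arrays compared) and received the lowest weight when arrays were weighted by their residuals (0.735).

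CITED1 is a transcriptional co-regulator without a DNA-binding domain of its own that binds the acetyltransferases CBP and p300. In the melanocyte lineage pigment is made in melanosomes, organelles whose structural proteins and enzymes (PMEL, MLANA, TYR) are switched on by the transcription factor MITF through DNA motifs that include CATGTG. Dividing cells switch on a different set late in the cell cycle: tubulins and kinesins of the spindle, and the condensin and cohesin complexes that compact sister chromatids and hold them together. Many promoters of such late genes carry the CCAAT box, bound by NF-Y, and a site near the start of transcription known as the cell cycle genes homology region, TTTGAA.

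The target itself was read by a single probe. CITED1 stood at 0.44, 0.35, 0.54 and 0.53 in the siNEG arrays and at -0.14, -0.19, -0.13 and -0.25 in the #1 arrays. The groups did not overlap, and the difference was -0.64 ± 0.06 log2 (SE, limma adjusted p = 1.8e-07), 1.56-fold lower, with an exact permutation p of 0.0286 (two-sided), the smallest that 4 arrays against 4 allow. In bulk RNA, fewer cells of a kind and less RNA per cell cannot be told apart, here or in any value below.

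In total 2858 of 47315 probes (6.04%) passed an adjusted p of 0.05 with #1, 1319 higher (2.79%) and 1539 lower (3.25%). Most of the changes were small. The median called probe differed 1.27-fold, the smallest called difference was 0.20 log2, 329 called probes differed at least 1.5-fold (132 higher, 197 lower), 25 at least 2-fold and 2 at least 3-fold. Both of the last were probes of FAM3C, a secreted cytokine-like protein. The arrays of the 2 groups did not overlap at 4348 probes (9.19%), of which 2432 (5.14% of all) were also called. When the probes of a gene were averaged, 1973 of 20045 genes passed (9.84%), 966 higher (4.82%) and 1007 lower (5.02%). For #3 against siNEG 1201 probes passed (2.54%), and 3528 (7.46%) passed in the direct test of #1 against #3. Those 3 comparisons share arrays in pairs.

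The 30 genes that rose furthest and the 30 that fell furthest with #1, each called and with its 4 #1 arrays clear of the 4 siNEG arrays, are described by their roles below. They were picked by their size in this comparison, so that their p-values and the lack of overlap describe them and do not test the list. HMOX1, FABP7, KAT2B, PTGS2 and SPATS1 led the rises (1.54 to 1.19 log2) and FAM3C, SERPINA3, IL1RAP, CDK6 and GINS2 the falls (-1.91 to -1.21).

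Genes of the pigment cell rose among the largest changes. PMEL, the protein that forms the fibrils of the melanosome, read 0.04, -0.29, -0.34 and -0.45 in siNEG and 0.92, 0.73, 0.55 and 0.69 with #1. It rose 1.97-fold (0.98 ± 0.10 log2, limma adjusted p = 2.2e-07), whereas it was -0.20 with #3 (adjusted p = 0.46). TYR, tyrosinase, which starts melanin synthesis, stood between -0.46 and -0.36 in siNEG and between 0.36 and 0.63 with #1, a 1.90-fold rise (0.93 ± 0.07). MLANA, a membrane protein of early melanosomes, rose 1.91-fold (0.93 ± 0.07). Of 9 melanocytic markers matched, 6 rose and 0 fell (background at the gene level 4.82% and 5.02%): these 3 with TYRP1 (0.71, mean of probes), EDNRB (0.44) and MITF (0.21), while SOX10 was at 0.00, PAX3 at 0.00 and S100B at -0.04. With #3, MLANA (0.66), TYR (0.27), EDNRB (0.26) and MITF (0.24) also rose past the threshold. PMEL, TYRP1 (0.24, limma adjusted p = 0.20), SOX10, PAX3 and S100B did not pass with #3. Of the 6 keratinocyte, 6 fibroblast, 4 immune and 4 endothelial markers 0 passed with #1 (differences from -0.17 to 0.15). TYR is of use as an example because its promoter is among those in which MITF sites are known. The 250 bases before its start site are shown here (GRCh38.p14, RefSeq, chr11:89177625-89177874, + strand), with the CATGTG motifs in capitals, the first base of each lying 104 and 12 bases before the start.
TYR: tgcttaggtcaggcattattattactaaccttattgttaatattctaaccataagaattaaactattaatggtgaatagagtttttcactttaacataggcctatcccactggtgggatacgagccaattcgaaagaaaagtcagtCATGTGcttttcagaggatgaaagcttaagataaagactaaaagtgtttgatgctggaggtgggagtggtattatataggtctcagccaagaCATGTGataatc

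That motif was not common among the genes that moved. Searched on both strands in windows of 250 bases before to 50 after the start, CATGTG occurred in 2 of the 23 promoters matched among the 30 largest rises (8.7%), in 7.3% of 795 promoters of all genes that rose, and in 8.41% of the 15033 promoters of all genes tested. Among the falls it was in 1 of 23 (4.35%) of the largest and in 5.7% of all 807. CACGTG, also counted, was in 3 of 23 of the largest rises (13%) and 5 of 23 of the largest falls (21.7%). It was in 10.6% of all genes that rose, 8.92% of all that fell and 8.89% of all tested. A match is a description of the letters in a promoter.

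Further single members of the 30 rises are described by role and stand for no group. NPTX1, a secreted pentraxin that clusters glutamate receptors at synapses, read -0.37, -0.11, -0.18 and -0.40 in siNEG and 0.90, 0.77, 0.92 and 0.94 with #1, and rose 2.21-fold (1.15 ± 0.09 log2, adjusted p = 5.3e-09). With #3 the same probe fell by 0.35 (adjusted p = 0.037). GPM6B, a neuronal membrane proteolipid, rose by 1.11 ± 0.12, with a wide spread among the #1 arrays, which read 0.26, 0.52, 0.96 and 0.98. The adhesion molecules IGSF11 and CADM1 rose by 0.91 ± 0.08 and 0.83 ± 0.12, and EPHA3, a receptor for ephrins, by 0.82 ± 0.08. The other probes of IGSF11 stood at -0.002 and 0.04 and those of EPHA3 at 0.06 and -0.09, and none of them was called. SHISA2, which holds back Wnt and FGF receptors in the endoplasmic reticulum, stood at 0.66 to 0.86 in the #1 arrays and at -0.34 to -0.02 in siNEG (0.98 ± 0.07). With #3 SHISA2 fell by 0.31 (limma adjusted p = 0.018). FZD4, a Frizzled receptor of Wnt and norrin, rose by 0.80 ± 0.07, and VGLL4, a cofactor of TEAD factors, by 0.82 ± 0.07. Of these, VGLL4 was the only gene among the 30 rises that did not pass the direct test of #1 against #3 (0.73 ± 0.07 with #3, adjusted p of the difference = 0.62).

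The next members of the 30 rises are secreted or act in signalling, although the families of secreted proteins had 17 genes higher and 21 lower of 393. SPP1, osteopontin, a phosphoprotein of bone and of the tumour matrix, read -0.43, -0.54, -0.40 and -0.52 in siNEG and 0.55, 0.83, 0.55 and 0.51 with #1 (1.08 ± 0.08 log2, 2.12-fold). Its other probe rose by 0.99. LUM, a small proteoglycan that organises collagen, rose by 1.03 ± 0.12, although siNEG replicate 1 lay well below its fellows (-1.15 against -0.45 to -0.20). CEMIP, which takes part in the breakdown of hyaluronan, rose by 0.83 ± 0.09 with #1 and fell by 0.83 ± 0.09 with #3. IL24, a cytokine of the interleukin 10 family, rose by 0.82 ± 0.08 and fell by 0.34 with #3, and TNFRSF19, a receptor of the TNF superfamily, rose by 0.85 ± 0.07. The other probe of IL24 was at 0.06 with #1, and those of TNFRSF19 at 0.27, 0.07 and 0.05. SDCBP, the scaffold syntenin, rose by 0.94 ± 0.07 and at its second probe by 0.92. ADCY1, an adenylyl cyclase, rose by 0.87 ± 0.09.

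MX1, a dynamin-like GTPase with antiviral activity that interferons induce, read -0.37, -0.59, -0.31 and -0.46 in siNEG and 0.78, 0.73, 0.64 and 0.52 with #1, a 2.14-fold rise (1.10 ± 0.08 log2, adjusted p = 9e-10). NR4A2, an orphan nuclear receptor, rose 1.98-fold (0.99 ± 0.09) and by 0.90 at its second probe, but fell by 0.36 and 0.33 with #3. Enzymes among the rises were AKR1C3, which reduces steroids and prostaglandins (1.05 ± 0.08), PDK4, which switches off pyruvate dehydrogenase (0.85 ± 0.13), and CYBRD1, a ferric reductase (0.82 ± 0.15). PDK4 spread widely with #1 (0.12, 0.22, 0.97 and 0.77). RAB5A, a GTPase of early endosomes, rose by 0.80 ± 0.17, the least certain of the 30. Its siNEG arrays ran from -1.03 to 0.40, with replicate 1 lowest, and its call ended with a robust prior (adjusted p = 0.15) and with no moderation of the variances (0.21), and at the gene level without #1 replicate 4 (0.065). Without siNEG replicate 1 the difference of RAB5A was 0.51 (adjusted p = 0.0019). The call of CYBRD1, whose siNEG replicate 1 read -1.01 against -0.33 to 0.12 in the others, ended with the same changes of the prior (0.059 and 0.1), while its second probe rose by 0.73. H2BC21, a histone H2B gene, completed the list and is described with its family.

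**Figure D1:**
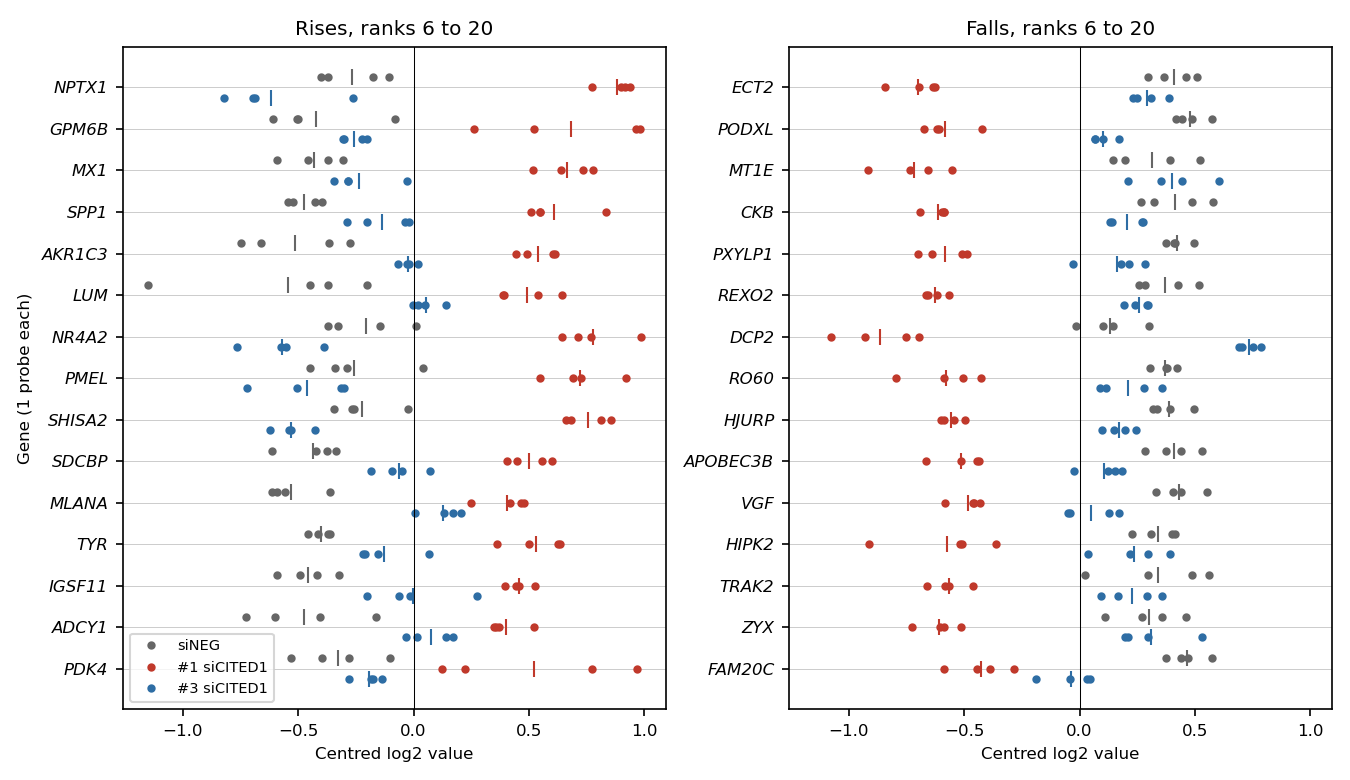
Centred log2 values of each array for the genes at ranks 6 to 20 among the rises (left) and falls (right) with #1; points are arrays (4 per group), ticks are group means, grey siNEG, red #1 siCITED1 and blue #3 siCITED1. The red points lie clear of the grey ones in all 30 genes, as the rule that picked them required, whereas all 4 blue points lie on the far side of siNEG for SHISA2, NR4A2 and DCP2.

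Among the 30 largest falls, 6 act in chromosome segregation or cytokinesis, a grouping by role without a test. The share of genes with such roles among all genes was not counted, so the 6 describe the list alone. ECT2, an exchange factor that acts at the division plane, read 0.51, 0.36, 0.29 and 0.46 in siNEG and -0.64, -0.63, -0.70 and -0.84 with #1. It fell 2.15-fold (-1.11 ± 0.07 log2, adjusted p = 8.4e-11) and was -0.11 with #3 (adjusted p = 0.615). HJURP, the chaperone that loads the centromeric histone CENP-A, stood at -0.60 to -0.50 in all #1 arrays and at 0.32 to 0.50 in siNEG (-0.94 ± 0.06). AURKA, a spindle pole kinase, fell by 0.89 ± 0.07 and by 0.74 at its second probe. NEK2, a kinase that separates centrosomes, fell by 0.86 ± 0.07, CDCA5, sororin, which keeps cohesin on chromatin, by 0.88 ± 0.08, and UBE2C, the ubiquitin-conjugating enzyme of the anaphase-promoting complex, by 0.87 ± 0.06. Of these 6 genes CDCA5 and UBE2C also fell with #3, by 0.37 and 0.24. All 6 passed the direct test of #1 against #3.

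Other members of the 30 falls act on RNA or DNA. DCP2, the catalytic subunit that decaps messenger RNA, read -0.02, 0.30, 0.10 and 0.14 in siNEG and -1.08, -0.93, -0.75 and -0.70 with #1. It fell 2-fold (-0.998 ± 0.079 log2) and rose with #3 by 0.60 ± 0.08, so that it had opposite calls with the siRNAs. REXO2, an oligoribonuclease of mitochondria, fell by 1.00 ± 0.07. RO60, the ring-shaped protein that binds Y RNAs, fell by 0.95 ± 0.08, and 2 of its 3 other probes fell by 0.60 and 0.49. APOBEC3B, a cytidine deaminase of DNA, fell by 0.92 ± 0.07. These genes were named for their size, and of the 586 genes in the RNA families formed 15 fell and 4 rose (3.24% called, against 9.84% of all genes). Most of the 586 were noncoding: 294 small nucleolar RNAs and host genes (3.4% called) and 254 long intergenic noncoding RNAs (1.57%, 2 to 3 called when an array was left out). Of the 38 SR and hnRNP splicing proteins 5 fell and 0 rose (13.2%), with 3 to 5 called when an array was left out.

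Further members of the 30 falls belong to the cell surface, the secretory pathway or adhesions. PODXL, podocalyxin, read 0.57, 0.49, 0.44 and 0.42 in siNEG and -0.42, -0.61, -0.62 and -0.67 with #1 (-1.06 ± 0.07 log2). ZYX, zyxin, an actin regulator of focal adhesions, fell by 0.91 ± 0.08 and by 0.84 at its second probe, and was 0.01 with #3. BAIAP2L1, which bends membranes and binds actin, lay between -0.58 and -0.54 in all #1 arrays and fell by 0.88 ± 0.07. The secreted or secretory pathway genes VGF, a neuropeptide precursor, FAM20C, a kinase of secreted proteins, and ANGPTL4, an inhibitor of lipoprotein lipase, fell by 0.92 ± 0.07, 0.89 ± 0.07 and 0.86 ± 0.08, and each of these also fell with #3 (by 0.38, 0.50 and 0.49). For ANGPTL4 siNEG replicate 1 lay above the other siNEG arrays (0.72 against 0.34 to 0.39). TMED10, a cargo receptor of early secretory vesicles, fell by 0.85 ± 0.14, with siNEG arrays from -0.06 to 0.78, and its call ended with no moderation of the variances (adjusted p = 0.075). BLOC1S6, a subunit of the BLOC-1 complex that sorts cargo to melanosomes, fell by 0.86 ± 0.08 and by 0.51 at its second probe.

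The rest were MT1E, a metallothionein (-1.03 ± 0.09 log2), CKB, the brain creatine kinase (-1.03 ± 0.07), PXYLP1, a phosphatase of proteoglycan linkers (-1.01 ± 0.07), HIPK2, a nuclear kinase (-0.91 ± 0.09), TRAK2, which couples mitochondria to kinesin (-0.91 ± 0.09), PEDS1, the desaturase that makes plasmalogens (-0.87 ± 0.08), and AIM2, an inflammasome sensor of DNA (-0.86 ± 0.10). PEDS1 rose with #3 by 0.32 (adjusted p = 0.022). AIM2 was the only gene of the 30 falls that did not pass the test of #1 against #3 (-0.66 with #3, adjusted p of the difference = 0.34).

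CITED1 itself fell by 0.75 ± 0.06 log2 with #3 and by 0.64 ± 0.06 with #1, and the difference between the siRNAs did not pass (0.11 ± 0.06, adjusted p = 0.47). The 60 probes chosen for #1 were on the median nearer 0 with #3. Their median was 0.94 log2 with #1 and 0.22 with #3 among the rises, and -0.92 and -0.15 among the falls. Over all probes 1.34% rose and 1.2% fell with #3. Of the 30 rises 13 also rose with #3, 5 fell and 12 did not pass, and of the 30 falls 11 also fell, 2 rose and 17 did not pass. The probes were picked by their size with #1, which favours #1, and both differences use the same siNEG arrays. In 29 of 30 genes each way the difference between the siRNAs passed, in a contrast that again holds the arrays the genes were picked on.

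**Figure D2:**
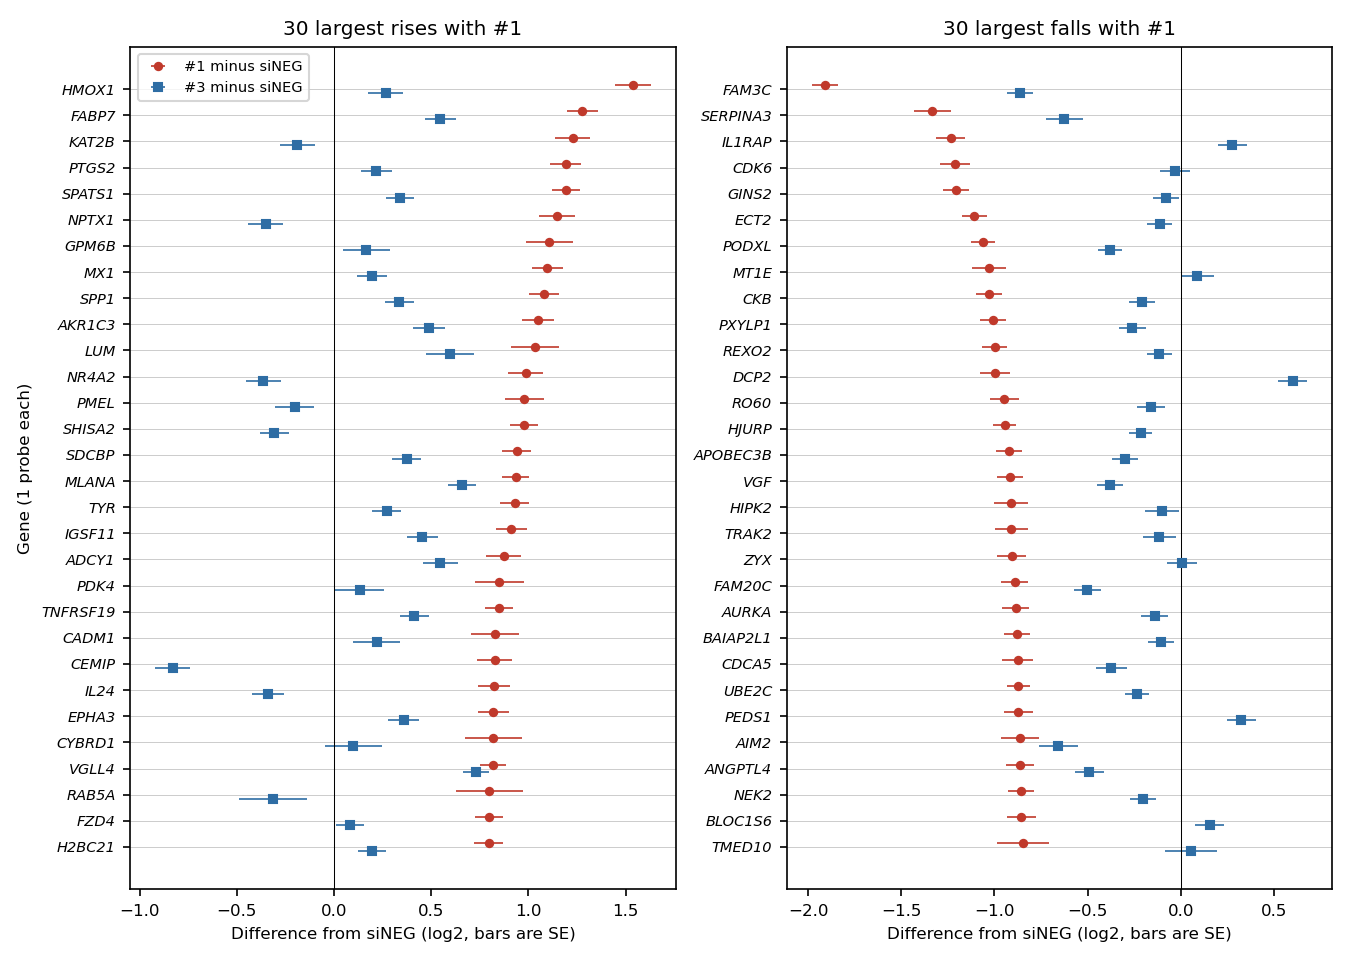
Difference from siNEG (log2, bars are SE) with #1 (red circles) and #3 (blue squares) for the 30 largest rises (left) and falls (right) with #1, 1 probe per gene, in order of size. The red points span 0.80 to 1.54 on the left and -1.91 to -0.85 on the right, while the blue points spread across 0, with CEMIP (-0.83) and DCP2 (0.60) at the opposite sign.

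Gene families were counted over the mean of a gene's probes. In all, 56 families with 3942 genes were formed from symbols or lists, and they are read against the 9.84% of all genes called (4.82% higher, 5.02% lower). Of the 56, 17 had more than 1.5 times the background share, 9 had less than the background divided by 1.5, 26 had more genes higher than lower and 24 the reverse. Small families rest on few genes: leaving out a single array moved the count by more than 1.5 times in 21 of the 56, and the range is given where such a count is quoted.

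**Figure D3:**
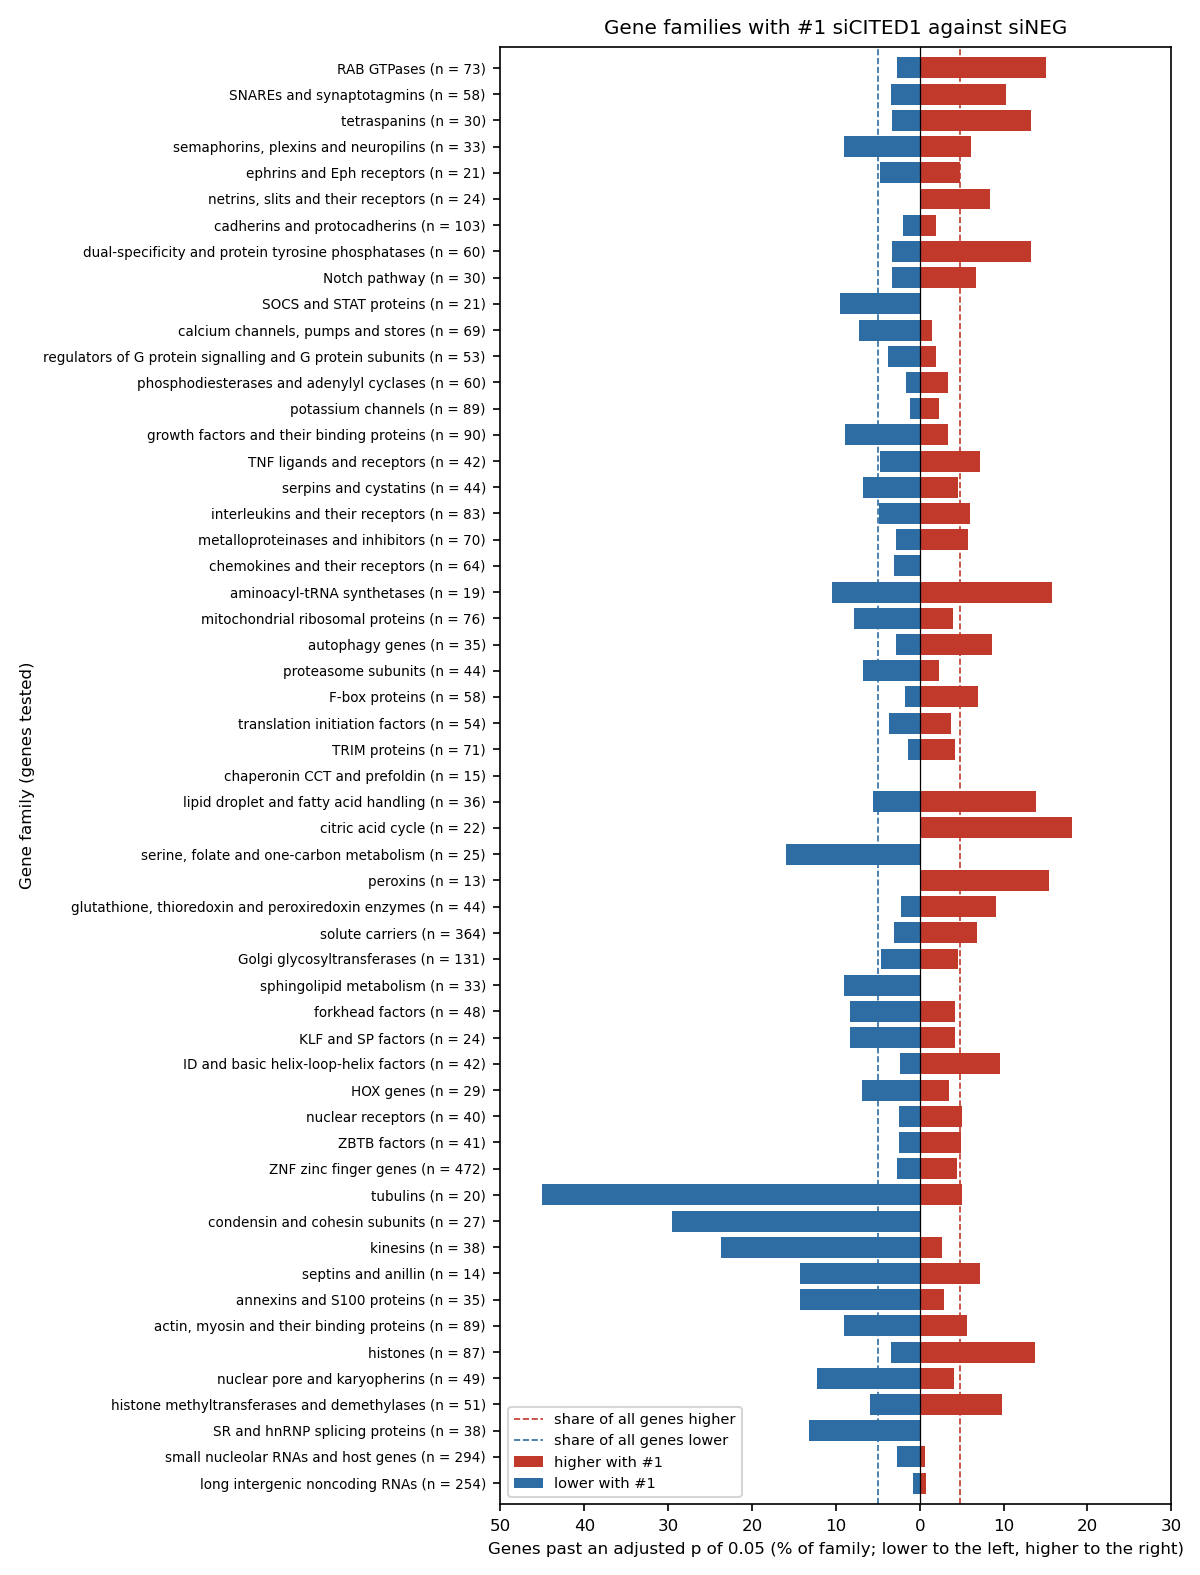
Share of the genes of 55 of the 56 families past an adjusted p of 0.05 with #1 (red, higher, to the right; blue, lower, to the left), sorted by theme, with the number of genes tested; dashed lines mark the shares of all genes (4.82% higher, 5.02% lower). Tubulins, condensin and cohesin subunits and kinesins reach furthest to the left; the bars of small families rest on few genes.

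The families of cell division had the largest share of called genes among the groups of families formed. Of 99 genes in the 4 families of tubulins, kinesins, condensin and cohesin subunits, and septins with anillin, 28 fell and 3 rose (31.3% called against 9.84% of all genes), at a median of -0.05 log2 against 0.00 over all genes. Of 20 tubulins 9 fell and 1 rose. TUBB2B, a beta tubulin of neural tissue, read 0.35, 0.22, 0.38 and 0.17 in siNEG and -0.47, -0.63, -0.47 and -0.63 with #1, and fell 1.78-fold (-0.83 ± 0.07, adjusted p = 3.2e-07), against -0.01 with #3. TUBB4B and TUBB6 fell by 0.60 ± 0.08 and 0.54 ± 0.06, the alpha tubulins TUBA1A, TUBA1B and TUBA1C by 0.26 to 0.32, and TUBG1, which nucleates microtubules, by 0.22 ± 0.05, while TUBB4A rose by 0.39 ± 0.07. Tubulin genes are close in sequence, and the files do not say whether a probe reads 1 copy alone.

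Among 38 kinesins 9 fell and KIF3C, a motor of axonal transport, rose (0.24 ± 0.07 log2). All 9 that fell act in the spindle or in cytokinesis. KIF20A, a motor of the central spindle, stood at 0.22 to 0.34 in siNEG and at -0.54 to -0.47 in the #1 arrays, and fell 1.74-fold (-0.80 ± 0.07). KIF14, which acts in cytokinesis, fell by 0.79 ± 0.08, KIF22, which pushes chromosome arms, by 0.66 ± 0.07, KIF2C, which takes microtubules apart at centromeres, by 0.64 ± 0.06, and KIF23, the motor of centralspindlin, by 0.49 ± 0.06. The last 4 were KIF11, KIF4A, KIF20B and KIF15, at -0.48 to -0.31. With #3, KIF23 was at 0.01 and KIF4A at 0.01, KIF20A at -0.06, and KIF14 at -0.42. In all, 3 of the 38 kinesins fell with #3 and 0 rose. Of all probes 1.2% fell with it, but that share counts probes and not means per gene. The share of all genes with #3 is not given here, so these 3 are not read against a background.

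Of 27 condensin and cohesin genes 8 fell and 0 rose, and 20 of the 27 had a difference below 0. CDCA5 led, followed by NCAPG, a condensin I subunit, which read -0.07, 0.21, 0.27 and 0.29 in siNEG and -0.35, -0.43, -0.49 and -0.50 with #1 (-0.62 ± 0.08 log2). SGO1, shugoshin, which shields centromeric cohesin, fell by 0.58 ± 0.08, ESCO2, a cohesin acetyltransferase, and NCAPD2 by 0.49 each, and SMC4, the ATPase of both condensins, by 0.30 ± 0.05. ANLN, anillin, the scaffold of the contractile ring, fell by 0.51 ± 0.09. Of the 14 septin and anillin genes 3 were called in all, and 1 without siNEG replicate 3 or #1 replicate 2.

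Promoters are shown for a pair of members of 1 pathway of cytokinesis, KIF23 and ECT2, since centralspindlin brings ECT2 to the division plane. ECT2 is from the largest falls and belongs to none of the division families counted. The pair was chosen after its values were seen and does not stand for the families. Each is the stretch of 250 bases before the RefSeq start site on GRCh38.p14, + strand, at chr15:69414099-69414348 for KIF23 and chr3:172750476-172750725 for ECT2, with TTTGAA and the CCAAT box (ATTGG where it lies on the other strand) in capitals.
KIF23: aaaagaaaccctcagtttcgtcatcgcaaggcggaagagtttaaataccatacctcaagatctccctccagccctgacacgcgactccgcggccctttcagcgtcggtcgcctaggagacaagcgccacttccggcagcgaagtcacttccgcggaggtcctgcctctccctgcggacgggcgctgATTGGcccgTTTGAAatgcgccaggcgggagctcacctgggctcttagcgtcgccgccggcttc
ECT2: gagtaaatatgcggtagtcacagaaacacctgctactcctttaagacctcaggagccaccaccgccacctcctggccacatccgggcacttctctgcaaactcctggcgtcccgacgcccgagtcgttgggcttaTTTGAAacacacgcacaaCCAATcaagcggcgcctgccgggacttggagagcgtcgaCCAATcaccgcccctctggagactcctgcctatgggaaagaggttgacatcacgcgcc
In KIF23 the TTTGAA begins 55 bases before the start, next to a CCAAT box whose first base lies at 64. In ECT2 it begins 115 bases before the start, with CCAAT boxes at 97 and 58.

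These letters were counted in the windows of 300 bases (250 before and 50 after the start), on both strands. TTTGAA was present in 13 of the 27 promoters matched among the division genes that fell (48.1%), in 7 of 56 among the division genes that did not pass (12.5%), and in 12.2% of the 15033 promoters of all genes tested. The 13 were ANLN, KIF11, KIF14, KIF15, KIF20B, KIF23, KIF4A, NCAPD2, NCAPG, NCAPG2, SMC4, TUBA1C and TUBB4B. Not all of these matches lay close before the start. Counted from it, they stood at -242 in TUBB4B, -173 in TUBA1C and -145 in NCAPD2, and at 24 and 30 in KIF20B and 35 in NCAPG2. The count of letters does not tell homology region sites from other matches. CCAAT, which does not overlap TTTGAA, was present in 59.3%, 39.3% and 36.5% of the same sets. Over all genes that fell, TTTGAA was in 16.6% of 807 promoters and over all that rose in 10.4% of 795. The counts are descriptions of genes picked by their change, and no match says only that the letters are not in the window.

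**Figure D4:**
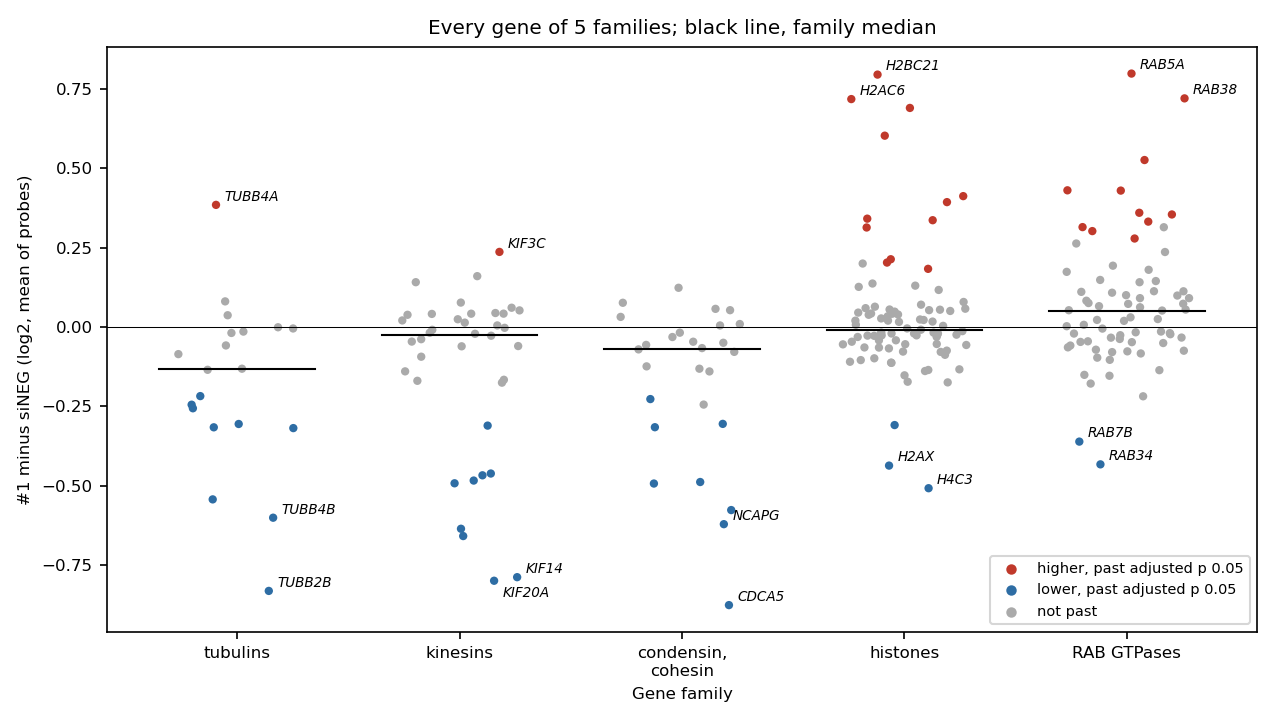
Difference between #1 and siNEG (log2, mean of a gene's probes) for every gene of 5 families; red and blue points passed an adjusted p of 0.05, grey points did not, and black lines are family medians. In tubulins, kinesins and condensin and cohesin the called genes lie almost all below 0, whereas in histones and RAB GTPases most lie above it.

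Among histone genes more rose than fell. Of 87 genes 12 rose and 3 fell (17.2% called), and the median was -0.01 log2, so that the rises came from a minority of the genes. H2BC21 read -0.39, -0.36, -0.20 and -0.38 in siNEG and 0.55, 0.60, 0.36 and 0.35 with #1 (0.80 ± 0.07, 1.74-fold, adjusted p = 1e-06). H2AC6 rose by 0.72 ± 0.07, H2AC19 by 0.69 ± 0.12, H2AC18 by 0.60 ± 0.05 and H2BC5 by 0.41 ± 0.05. H2AC18 and H2AC19 are nearly identical copies, and their probes may not tell them apart. The 3 that fell were H4C3, a replication-dependent H4 gene (-0.51 ± 0.06), H2AX, the variant phosphorylated at DNA breaks (-0.44 ± 0.07), and H2AZ1, a variant of gene starts (-0.31 ± 0.05). The number called stayed between 13 and 14 when any single array was left out. Of the 87, 4 rose and 0 fell with #3. Of all probes 1.34% rose and 1.2% fell with it, a share of probes and not of means per gene, so it is no background for the 87.

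Of 51 enzymes that write or erase histone methylation 5 rose and 3 fell (15.7% called). SUV39H1, which marks heterochromatin, fell from 0.16 to 0.27 in siNEG to between -0.42 and -0.25 (-0.55 ± 0.05 log2). EZH2, the enzyme of Polycomb complex 2, fell by 0.31 ± 0.05. The demethylases KDM5B and KDM3A rose by 0.48 ± 0.07 and 0.37 ± 0.07. Among genes of nuclear import KPNA2, an importin alpha, fell by 0.53 ± 0.07 and was 0.05 with #3.

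More genes of membrane traffic rose than fell. Of 73 RAB GTPases, the switches that direct vesicles, 11 rose and 2 fell (17.8% called, median 0.05 log2), and 11 to 14 passed when an array was left out. RAB38, which carries enzymes to melanosomes, read -0.50, -0.21, -0.44 and -0.33 in siNEG and 0.40, 0.27, 0.25 and 0.49 with #1 (0.72 ± 0.07, adjusted p = 3.2e-06). RAB32, its close relative, rose by 0.36 ± 0.07. The endosomal members RAB5B, RAB7A and RAB9A rose by 0.43 ± 0.05, 0.43 ± 0.09 and 0.36 ± 0.06, and RAB10, of exocytosis, by 0.53 ± 0.09. RAB34 fell by 0.43 ± 0.06, with #1 arrays between -0.27 and -0.20 and siNEG arrays between 0.18 and 0.23, and RAB7B fell by 0.36 ± 0.07. With #3 RAB10 was at -0.21 and did not pass (adjusted p = 0.24), and RAB38 rose by 0.39. Of the 73, 6 rose and 1 fell with #3. Of all probes 1.34% rose and 1.2% fell with it, a share of probes and not of means per gene, so it is no background for the 73.

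Among genes of the cytoskeleton beyond tubulin more fell than rose. Of 35 annexins and S100 proteins, which bind calcium at membranes, 5 fell and 1 rose (17.1% called). S100A3 read 0.25, 0.21, 0.00 and 0.27 in siNEG and -0.35, -0.38, -0.50 and -0.42 with #1 (-0.60 ± 0.07 log2). S100A1 fell by 0.38 ± 0.07 and ANXA2 by 0.33 ± 0.05. Of 89 actin, myosin and binding proteins 8 fell and 5 rose (14.6%). TAGLN2, an actin binder of the transgelin family, fell by 0.46 ± 0.06, while the smooth muscle actin ACTA2 rose by 0.54 ± 0.08 with #1 and by 0.55 with #3.

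Metabolic families were mixed. All 4 called genes of 25 in serine, folate and one-carbon metabolism fell (16% called). TYMS, thymidylate synthase, read 0.11, 0.28, 0.49 and 0.25 in siNEG and -0.39, -0.38, -0.32 and -0.47 with #1 (-0.68 ± 0.07 log2), PHGDH, which opens serine synthesis, fell by 0.46 ± 0.06, and SHMT1 by 0.32 ± 0.05 (-0.60 when its most variable probe was used in place of the mean). Of 36 genes of fatty acid handling 5 rose and 2 fell (19.4%), with LPL, lipoprotein lipase, at 0.72 ± 0.09 beside FABP7. Its inhibitor ANGPTL4 was among the falls. The solute carriers, 364 membrane transporters, had 25 higher and 11 lower, in all 9.89% and so at the background. SLC5A4, a member of the sodium-glucose family, rose by 0.75 ± 0.06, SLC18B1, a polyamine transporter of vesicles, by 0.71 ± 0.08, and SLC25A23, a mitochondrial carrier of ATP and magnesium, by 0.57 ± 0.08. Of 22 citric acid cycle genes 4 rose and 0 fell, with 2 to 5 called when an array was left out (2 without #1 replicate 1 or #1 replicate 4). SDHC, a subunit of succinate dehydrogenase, rose by 0.32 ± 0.06 and SUCLG2, of succinyl-CoA ligase, by 0.30 ± 0.05, the latter falling by 0.24 with #3.

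In protein synthesis WARS1, the tryptophanyl-tRNA synthetase, which interferon gamma also induces, fell 1.68-fold. WARS1 read 0.22, 0.19, 0.24 and 0.26 in siNEG and -0.57, -0.53, -0.46 and -0.51 with #1 (-0.75 ± 0.05 log2, mean of 2 probes, adjusted p = 5.2e-08), and 0.06 with #3. Of the 19 aminoacyl-tRNA synthetases 3 rose, QARS1 and LARS1 by 0.41 ± 0.07 and 0.31 ± 0.07 among them, and 2 fell, with 3 to 5 called when an array was left out (3 without siNEG replicate 1, 3 or 4). PSMB4, a subunit of the proteasome core, fell by 0.53 ± 0.07 and MRPS9, of the mitochondrial ribosome, by 0.62 ± 0.07. Proteasome subunits as a family were at the background (1 higher and 3 lower of 44, 9.09%), and of 15 chaperonin and prefoldin subunits 0 passed with limma.

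In signalling and secreted families single members moved. Of 60 dual-specificity and protein tyrosine phosphatases, receptor and non-receptor forms together, 8 rose and 2 fell (16.7% called). DUSP3, which acts on MAP kinases, stood at -0.29 to -0.17 in siNEG and at 0.19 to 0.41 with #1 (0.52 ± 0.06 log2), and PTPN1 rose by 0.38 ± 0.06 with #1 and by 0.39 with #3. Of 90 growth factors and binding proteins 8 fell and 3 rose (12.2%). TGFA, a ligand of the EGF receptor, fell by 0.59 ± 0.06, and CCN2 and CCN1, matricellular targets of the YAP and TEAD factors, by 0.57 ± 0.08 and 0.42 ± 0.06, while their relative CCN3 rose by 0.51 ± 0.09. With #3 CCN2 and CCN1 were at 0.13 and 0.05. In the TNF family TNFRSF14, the receptor of LIGHT, rose by 0.78 ± 0.08 and TNFRSF11B, osteoprotegerin, by 0.43 ± 0.07, whereas TNFRSF12A, the receptor of TWEAK, fell by 0.43 ± 0.07. The calcium pump ATP2B4 and the cold-sensing channel TRPM8 fell by 0.51 ± 0.05 and 0.48 ± 0.05, and the potassium channel KCNN4 by 0.62 ± 0.09. NOTCH1 fell by 0.51 ± 0.07 and the Notch target HEY2 rose by 0.35 ± 0.06. Of 64 chemokines and receptors 0 rose and 2 fell, CX3CL1 by 0.46 ± 0.08 and CCL5, whose call ended when the most variable probe was used in place of the mean (adjusted p = 0.087), and 4 passed without #1 replicate 4.

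Transcription factor families lay near the background, with few members far from 0. Of 42 ID and basic helix-loop-helix factors 4 rose and 1 fell (11.9%). ID2, which blocks such factors by binding them, read -0.21, -0.23, -0.33 and -0.18 in siNEG and 0.61, 0.36, 0.27 and 0.31 with #1 (0.62 ± 0.07 log2). ID4 rose by 0.43 ± 0.08 and MYC by 0.27 ± 0.05. HOXD1 rose by 0.65 ± 0.06 and HOXB2 fell by 0.50 ± 0.07. The forkhead factors FOXD2 and FOXD1 fell by 0.53 ± 0.05 and 0.49 ± 0.07, as did FOXM1, an activator of late cell cycle genes, by 0.44 ± 0.07. FOXD2 rose with #3 by 0.22. Of 472 zinc finger genes of the ZNF series 21 rose and 13 fell (7.2%, 21 called in all without #1 replicate 3).

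Probes of the same gene gave a further reading of the response. Of 6688 genes with at least 2 probes 1009 had a called probe. In 189 of these all probes were called in the same direction, in 276 at least 2 were, in 726 only 1 was, and in 7 probes were called in opposite directions. For the 4318 genes read by exactly 2 probes, the differences of the probes correlated with r = 0.60 across genes, given as a description, since genes of 1 set of arrays are not replicates. Both probes were called in the same direction in 171 genes and only 1 in 454. In 363 of those 454 (80%) the other probe had the same sign, but its size was smaller, at a median of 0.09 log2 in the direction of the called probe against 0.32 for the called probe itself. Where both were called the median size was 0.45 and the median gap between the probes 0.09. Both sets were formed by the threshold. It favours a smaller other probe where only 1 was called, and large sizes where both were. These sizes therefore only describe the sets.

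**Figure D5:**
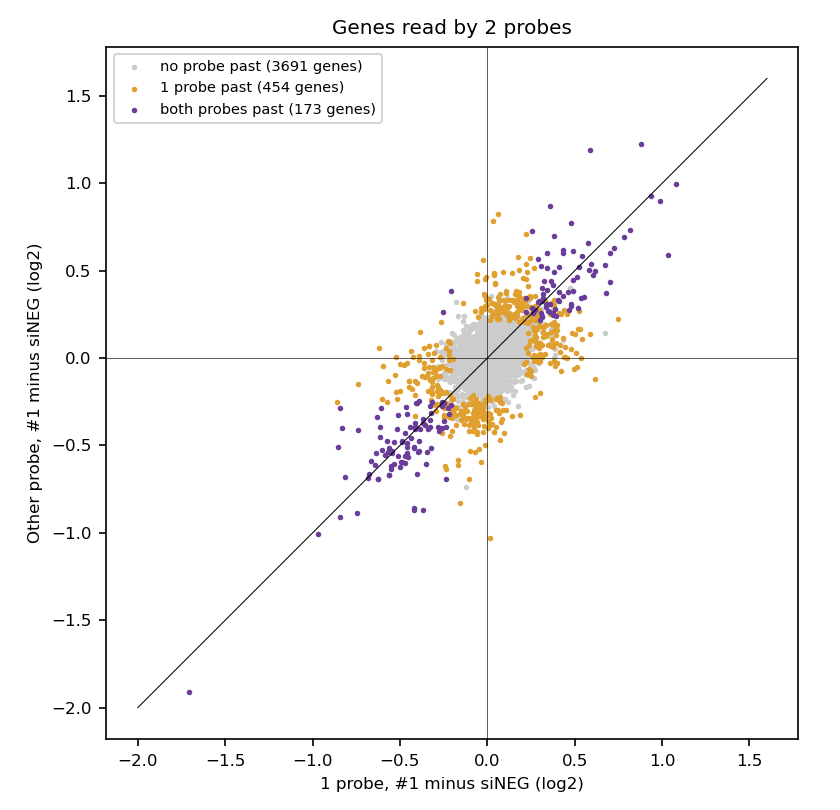
Differences between #1 and siNEG (log2) at both probes of the 4318 genes read by 2 probes; grey, no probe past an adjusted p of 0.05, orange, 1 probe, purple, both probes; the line marks equal values. Most purple points follow the line, whereas orange points lie along the axes, and FAM3C lies alone at the lower left.

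The 6 widest gaps, 5 of them in genes described above, were those of NPTX1, PODXL, MT1E, ZMAT3, IL1RAP and HIPK2. For NPTX1 the probe that rose by 1.15 had companions at 0.25, 0.11 and -0.09 log2. PODXL was at -1.06, -0.36 and 0.07, MT1E at -1.03 and 0.02, IL1RAP, the shared subunit of interleukin 1 receptors, at -1.23, -0.31 and -0.23, and HIPK2 at -0.91, -0.53, 0.08 and 0.01. ZMAT3, a zinc finger protein induced by p53, spread from 0.71 to -0.31 over 3 probes, with both extremes called. Outside these 6, the other probe of AIM2 was at -0.25 log2 and those of ANGPTL4 at -0.17 and 0.04. Such gaps do not show which probe reads the expressed transcript. The single-probe values of NPTX1, PODXL, MT1E, IL1RAP, HIPK2, IGSF11, IL24, EPHA3, TNFRSF19, AIM2 and ANGPTL4 are therefore less certain as values of the gene. Of the 30 genes among the largest changes that had other probes, 14 rises and 16 falls, all other probes were called in the same direction in 9 and 9, some in 2 and 4, and none in 3 and 3. The 7 genes with opposite calls were CAPZA1, CCNJL, DUT, ELMO1, SLTM, TRIM13 and ZMAT3, and in all 7 at least 1 of the calls ended when a single array was left out. For ZMAT3 this was the fall, without siNEG replicate 1 (adjusted p = 0.063).

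Probes that carried no single symbol also changed. Of 17210 such probes 401 were called (2.33%), 169 higher and 232 lower, against 8.16% of those with a symbol. The largest unnamed changes were nonetheless of the size of the largest named ones. ILMN_1701783 rose by 1.58 ± 0.09 log2, from -0.55, -0.59, -1.03 and -0.58 in siNEG to 1.00, 0.90, 0.79 and 0.90 with #1, more than any named probe, and rose by 0.47 with #3. ILMN_1701933 rose by 1.04 ± 0.08, and ILMN_1809439 and ILMN_2211800 fell by 0.99 ± 0.07 and 0.94 ± 0.07.

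By class of transcript, most called genes were protein-coding. Of 17774 protein-coding genes 948 rose and 961 fell (5.33% and 5.41%). Of 798 long noncoding RNAs 10 rose and 12 fell (2.76% called, against 9.84% of all genes), of 561 microRNA genes 1 rose and 3 fell (0.713%), and of 279 small nucleolar RNAs 1 rose and 7 fell (2.87%). Of 16 small nuclear RNAs 0 rose and 4 fell (25%). H19, an imprinted long noncoding RNA, fell by 0.37 ± 0.05 log2, and SNHG1, a host gene of small nucleolar RNAs, by 0.40 ± 0.07. The array preparation behind these values was not tested here for its capture of short or unpolyadenylated RNA.

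Along the genome, chromosome 7 held 8 of the 30 largest falls, those of FAM3C, CDK6, PODXL, VGF, HIPK2, ZYX, FAM20C and BAIAP2L1, and 2 of the 30 largest rises. Over all of its 937 genes, however, 5.23% fell and 5.44% rose, close to the 5.02% and 4.82% of all genes, at a median of 0.01 log2. The share that fell ran from 2.56% on the X chromosome to 7.18% on chromosome 12, and the share that rose from 2.21% on the X chromosome to 8.38% on chromosome 13.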

How the data were processed

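Cells of 4 wells per siRNA group were hybridised to 12 Illumina HT-12 arrays. Per the labels and methods, the authors quantile normalized the intensities, removed control probes in BASE, and deposited log2 values centred on genes and samples in MeV. Software versions, background correction and detection calls: not given in the sources used here. Before use, the means of probes and arrays were checked and lay within 1.33e-07 and 1.43e-05 of 0. That the logarithm has base 2 is known from the methods alone, and the values carry no depth.

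Groups were taken from the sample titles. Probes were named by the platform annotation and RefSeq (30066 of 30105 by Entrez ID). Values were used as deposited, with no filter. A model of all 3 groups used limma 3.58.1 (R 4.3.3; functions lmFit and eBayes), with two-sided p-values adjusted by Benjamini-Hochberg over all 47315 probes, or all 20045 genes for means of a gene's probes, at 0.05. The study's methods used SAM on both siRNAs pooled, which does not give this comparison. CITED1 was also tested by an exact permutation test over all 70 assignments. Errors of differences are SEs. The script was tested on simulated data. Promoters are RefSeq sequences on GRCh38.p14, and the last 50 bases of a window, which are transcribed, were scanned but not printed.

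Named genes are CITED1, the 30 largest rises and falls past the threshold without overlap, up to 3 called genes per family, genes whose probes disagreed, and up to 2 unnamed probes each way. Family members whose call ended on leaving out an array are mostly left out. Members named beyond this rule (other tubulins, kinesins, cohesin, histone and RAB genes, and KIF23 and ECT2 for their promoters) were chosen after their values were seen. The members, lists and families were chosen with earlier results of these data known, and the family patterns were corrected for stray symbols, pseudogenes and antisense genes once the probe names were at hand, so counts are given without a test. Some families are given by no gene in the text, and 1 is not reported here. Alternatives were the 8 arrays alone, the replicate number as a block, arrays shifted to a median of 0, a repeated quantile normalization, array weights, a robust prior, no moderation, an adjusted p of 0.01, the most variable probe per gene and leaving out each of the 8 arrays.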

Additional observations from a re-analysis of the deposited data

Results flagged for a closer look

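In 19 of 418 groups of 4 arrays tested (4.55%) 1 array lay far from its fellows, by the ratio of its gap to the nearest other array over the whole range of the group, above the critical value of Dixon's test for 4 values. Chance alone gives about 1 in 20. The arrays concerned were #1 replicates 1, 2, 3 and 4 in 2, 4, 4 and 3 groups and siNEG replicates 1, 2 and 3 in 4, 1 and 1.

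For EIF5A2 #1 replicate 1 was below the others, at -0.37 against -0.23 to -0.21 (ratio of 0.853). For KIF14 #1 replicate 1 was below the others, at -0.56 against -0.35 to -0.32 (ratio of 0.866). For ADCY1 #1 replicate 2 was above the others, at 0.52 against 0.35 to 0.37 (ratio of 0.871). For SPP1 #1 replicate 2 was above the others, at 0.83 against 0.51 to 0.55 (ratio of 0.88). For GABARAPL1 #1 replicate 2 was above the others, at 0.42 against -0.01 to 0.05 (ratio of 0.865). For LINC00339 #1 replicate 2 was below the others, at 0.02 against 0.12 to 0.13 (ratio of 0.859). For BAIAP2L1 #1 replicate 3 was below the others, at -0.58 against -0.54 to -0.54 (ratio of 0.863). For CKB #1 replicate 3 was below the others, at -0.69 against -0.60 to -0.59 (ratio of 0.904). For KDM3A #1 replicate 3 was below the others, at 0.09 against 0.15 to 0.16 (ratio of 0.879). For MRPL18 #1 replicate 3 was below the others, at -0.29 against -0.16 to -0.14 (ratio of 0.906). For KIF22 #1 replicate 4 was above the others, at -0.32 against -0.40 to -0.39 (ratio of 0.867). For SHMT1 #1 replicate 4 was below the others, at -0.23 against -0.18 to -0.17 (ratio of 0.845). For TSPAN10 #1 replicate 4 was below the others, at 0.14 against 0.32 to 0.35 (ratio of 0.864). For ANGPTL4 siNEG replicate 1 was above the others, at 0.72 against 0.34 to 0.39 (ratio of 0.88). For HEY1 siNEG replicate 1 was below the others, at -0.16 against -0.01 to 0.02 (ratio of 0.831). For KLF15 siNEG replicate 1 was below the others, at -0.25 against -0.08 to -0.06 (ratio of 0.907). For ZBTB22 siNEG replicate 1 was above the others, at 0.08 against -0.12 to -0.09 (ratio of 0.841). For CCL5 siNEG replicate 2 was below the others, at 0.07 against 0.19 to 0.21 (ratio of 0.844). For B4GALNT1 siNEG replicate 3 was below the others, at 0.10 against 0.25 to 0.28 (ratio of 0.839).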

How the results depend on the processing

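The number of probes called stayed within 1.5 times of 2858 with the 8 arrays alone, arrays shifted to a median of 0, a repeated quantile normalization, array weights and a robust prior. With no moderation of the variances it fell to 1486 (634 higher, 852 lower), of which 1414 were among the 2858, and at an adjusted p of 0.01 to 1746 (741 higher, 1005 lower). Leaving out each of the 8 arrays gave 2335 to 2700 probes (1039 to 1248 higher, 1294 to 1452 lower, 307 to 362 at 1.5-fold), 1581 to 1868 genes (732 to 924 higher, 849 to 944 lower, 176 to 206 at 1.5-fold) and a CITED1 difference from -0.68 to -0.62 log2. The totals hide some exchange of probes. Of the 2858 calls, 2217 (77.6%, without #1 replicate 4) to 2397 (83.9%, without siNEG replicate 2) were kept. The replicate number as a block gave 2914 probes and 1974 genes. The arrays shared only a number, since deviations at the same number correlated by 0.09, -0.05, -0.02 and -0.01. Not every alternative was run on every named result. Array weights, the shift to a median of 0, a repeated quantile normalization, a robust prior and no moderation were run on the 80 probe results alone. The most variable probe was run on the 159 gene results alone. No moderation ended 15 of the 80 calls. Of 239 named results 183 kept their call under every alternative run on them, 56 lost it under at least 1, and 0 changed direction. The cause was not tested. Without levels, detection calls or bead counts, the signal over background behind a change could not be weighed, and small changes near the smallest called difference of 0.20 log2 are the least secure.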
